A study of Penicillium oxalicum with 18 samples.

Results

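The genes described here were transcribed in glucose medium in the Penicillium oxalicum wild type, were much lower there in the strain without the F-box gene fbx23, and were higher again once fbx23 had been put back. They were chosen from their transcription levels in FPKM, which counts sequenced fragments scaled to transcript length and to the mapped reads of the library. The WT mean on glucose had to be 5 FPKM or more. On the log2(FPKM + 1) scale, its group mean in Δfbx23 on glucose had to lie at least 2 below both the WT and Refbx23, and its Δfbx23 and WT means on cellulose had to differ by less than 1. The conidiation regulator brlA and the spore pigment genes abrA, abrB, aygA, arpA, arpB and albA were left out by name. The locus used for brlA, PDE_00087, came from the list of genes to leave out and not from the paper. This gave 91 of the 9230 genes in the table. All strains were derived from 114-2, the WT. Δfbx23 is the strain with fbx23 deleted and Refbx23 is the strain in which fbx23 was returned to Δfbx23, so Refbx23 carries the history of both transformations, and each was represented by a single strain. Mycelia were precultured for 24 h at 30 °C with 2% glucose and moved for 18 h, per the labels, to a medium with 2% glucose (VMMG) or with 1% bran and 1% microcrystalline cellulose (VMMC). The paper gives a longer second culture, another basal medium and cellulose alone for the same samples. The terms VMMG and VMMC follow the paper. The 18 libraries form 6 groups of 3, and the labels do not say that replicates were separate cultures, so p-values measure the spread between these libraries only.

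F-box proteins are the substrate-recognition subunits of SCF ubiquitin ligases, which mark chosen proteins for breakdown by the proteasome. Fbx23 is studied for its link with Ace1, a zinc-finger transcription factor known from other filamentous fungi as a repressor of cellulase genes. BrlA is the master regulator of conidiation in Aspergillus and Penicillium, and the pigment genes make the melanin of the spore wall. Filamentous fungi also keep the genes of many secondary metabolites side by side in clusters, each built around a backbone enzyme such as a polyketide synthase (PKS) or a nonribosomal peptide synthetase (NRPS), and several of these clusters are switched on together with conidiation. Because RNA was taken from whole mycelium, fewer cells of a type and less RNA per cell cannot be told apart in any result below.

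FPKM sums were between 781397 and 954142 per library, and 8385 to 8648 genes were above 0. The table gave no read counts, so absolute depth was unknown, and relative depth estimated from low values was 0.965 to 1.05. That estimate rested on 69 to 111 genes with values of 2 decimals, and several libraries had the identical value of 1.05. It is coarse and does not show that the libraries were equally deep. Within groups, Pearson's r between libraries across genes was 0.970 to 0.995 on the log2(FPKM + 1) scale. Every Δfbx23 library listed fbx23 (PDE_08467) at 0, and it was between 56.9 and 76.9 FPKM in all others. Of the 9230 genes, 6515 reached 5 FPKM in the WT in VMMG, 258 of these were low enough in Δfbx23 against the WT, and 180 also against Refbx23. The condition in VMMC then took out 71 genes that were higher and 12 that were lower in Δfbx23 than in the WT on cellulose, and 6 conidiation and pigment genes were left out by name. The seventh gene named for exclusion, abrA, did not meet the conditions.

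Members close to the limits had ordinary values. PDE_09551 (5.46 FPKM) and PDE_01432 (5.63 FPKM) were just above the minimum in the WT in VMMG, and PDE_03622 (4.80 FPKM) and PDE_01157 (4.67 FPKM) just below it. For Δfbx23 against the WT in VMMG, PDE_09018 and PDE_01353 were both just inside at log2 differences of -2.01, and PDE_03135 (-1.94) and PDE_01341 (-1.93) just outside. For Δfbx23 against Refbx23 in VMMG, PDE_09018 (-2.18) and PDE_07946 (-2.45) were inside, and PDE_06734 (-1.99) and PDE_03008 (-1.90) outside. In VMMC, the absolute differences of PDE_07566 (0.98) and PDE_10007 (0.96) were inside, and those of PDE_00924 (1.14) and PDE_01418 (1.20) outside.

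The median of the members' group means was 27.5 FPKM in the WT and 1.12 FPKM in Δfbx23 in VMMG. In Δfbx23 the mean was 4.75% of the WT mean for the median member, with a range of 0% to 22.5%. All 91 members had all 3 Δfbx23 libraries below all 3 WT libraries. Because these libraries chose the members, that count and the shares here are a description. Of all 7691 genes compared, 26.9% were lower in all 3 Δfbx23 libraries. In Δfbx23 in VMMG 42 members had a mean under 1 FPKM, and PDE_00144, PDE_00469, PDE_03861 and PDE_04639 were listed at 0 in all 3 libraries. Residual signal in Δfbx23 was not even across its libraries. The median member was at 0.77, 1.78 and 0.93 FPKM in replicates 1, 2 and 3, and 64 of 91 members were highest in replicate 2. The share over all genes was not counted for these libraries. Of the 7 conidiation and pigment genes, 5 were highest in replicate 2. Among them was brlA, at 3.31 FPKM against 0.73 and 1.62 FPKM in replicates 1 and 3. The gene abrA was instead highest in replicate 1, at 56.3, 31.8 and 34.6 FPKM, and albA was at 1.02, 1.02 and 0.82 FPKM.

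**Figure D1:**
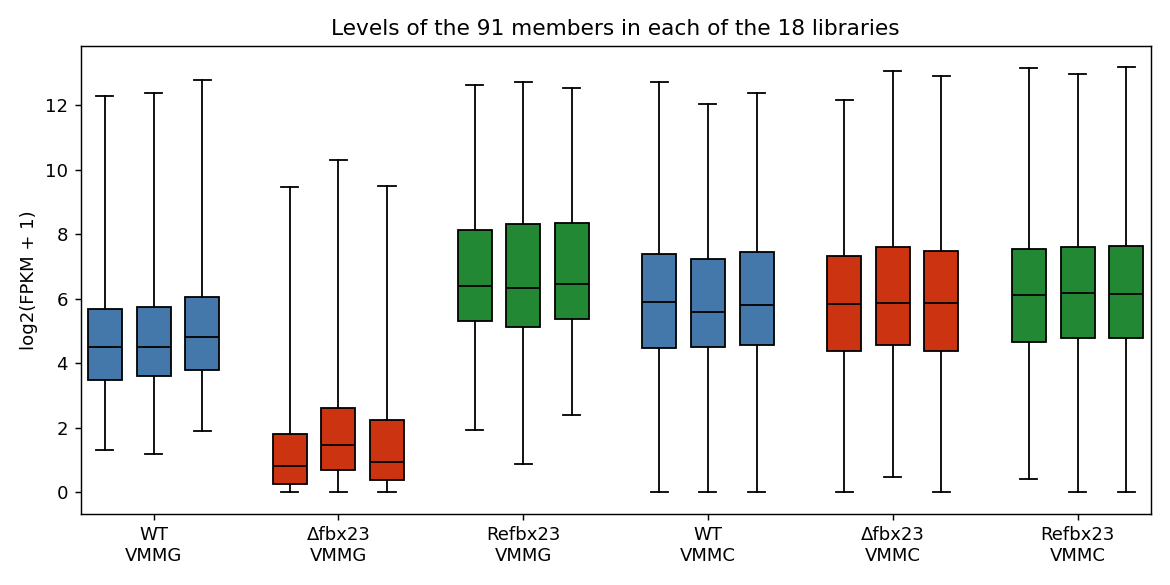
Box plots of log2(FPKM + 1) of the 91 members in each of the 18 libraries, with the median (line), quartiles (box) and lowest and highest member (whiskers). The 3 Δfbx23 libraries in VMMG had medians of 0.77 to 1.78 FPKM, those of Refbx23 in VMMG 80.2 to 87.6 FPKM, and the 9 libraries in VMMC 46.7 to 71.0 FPKM.

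With fbx23 returned, most members in VMMG stood above the WT and not level with it. The median of the members' means was 83.2 FPKM in Refbx23, and the ratio of the Refbx23 mean to the WT mean was 4.75 for the median member, with a range of 0.160 to 46.7. On the log2 scale 64 of 91 members were at least 1 above the WT, 49 at least 2 and 18 at least 3. Another 22 were less than 1 apart, and 5 were at least 1 below. All 3 Refbx23 libraries were above all 3 WT libraries for 64 members. Of all 7795 genes compared, 30.8% were higher in all 3 Refbx23 libraries. The term restored thus holds in the sense that levels were higher again than in Δfbx23, and the WT level was passed for most members. These contrasts use the libraries that chose the members, so no test is read from them. Of the 7 conidiation and pigment genes, 6 met the same conditions as the members, so their low level in Δfbx23 follows from these conditions. The seventh, abrA, kept more, with means in VMMG of 88.3 FPKM in the WT, 40.9 FPKM in Δfbx23 and 428 FPKM in Refbx23. The summed level of the 7 genes in VMMG was 489 to 1109 FPKM in the WT, 46.3 to 69.4 FPKM in Δfbx23 and 3989 to 4940 FPKM in Refbx23. No gene of the list had a mean of 0 in any group. Their part in the members' levels was not tested.

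In VMMC the medians of the members' means were close in the 3 strains, although single members differed. They were 54.7 FPKM in the WT, 55.8 FPKM in Δfbx23 and 70.6 FPKM in Refbx23, and the first pair was held close by the rule. The conidiation and pigment genes summed there to 3084 to 3575 FPKM in the WT, 2882 to 3582 FPKM in Δfbx23 and 2716 to 2919 FPKM in Refbx23. In the WT 53 members were at least 1 log2 unit higher in VMMC than in VMMG, 24 were less than 1 apart and 14 were at least 1 lower. Over all 8053 genes compared, this difference had a median of 0.13 and an upper quartile of 1.06, so many other genes were also higher in VMMC. In Δfbx23 84 of 91 members were at least 1 higher in VMMC, and 56 at least 4 higher. In Refbx23 37 members were at least 1 lower in VMMC than in VMMG, 11 were at least 1 higher and the others were less than 1 apart. The median of this difference was -0.81 for the members. For all 7958 genes compared it was 0.06, with quartiles of -0.31 and 0.51. The rule fixed the low level of Δfbx23 in VMMG and held Δfbx23 near the WT in VMMC, so the counts in Δfbx23 largely follow from the choice. It also required Refbx23 to lie above Δfbx23 in VMMG, so the counts in Refbx23 are not free of the choice. All of these counts are given without a test.

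**Figure D2:**
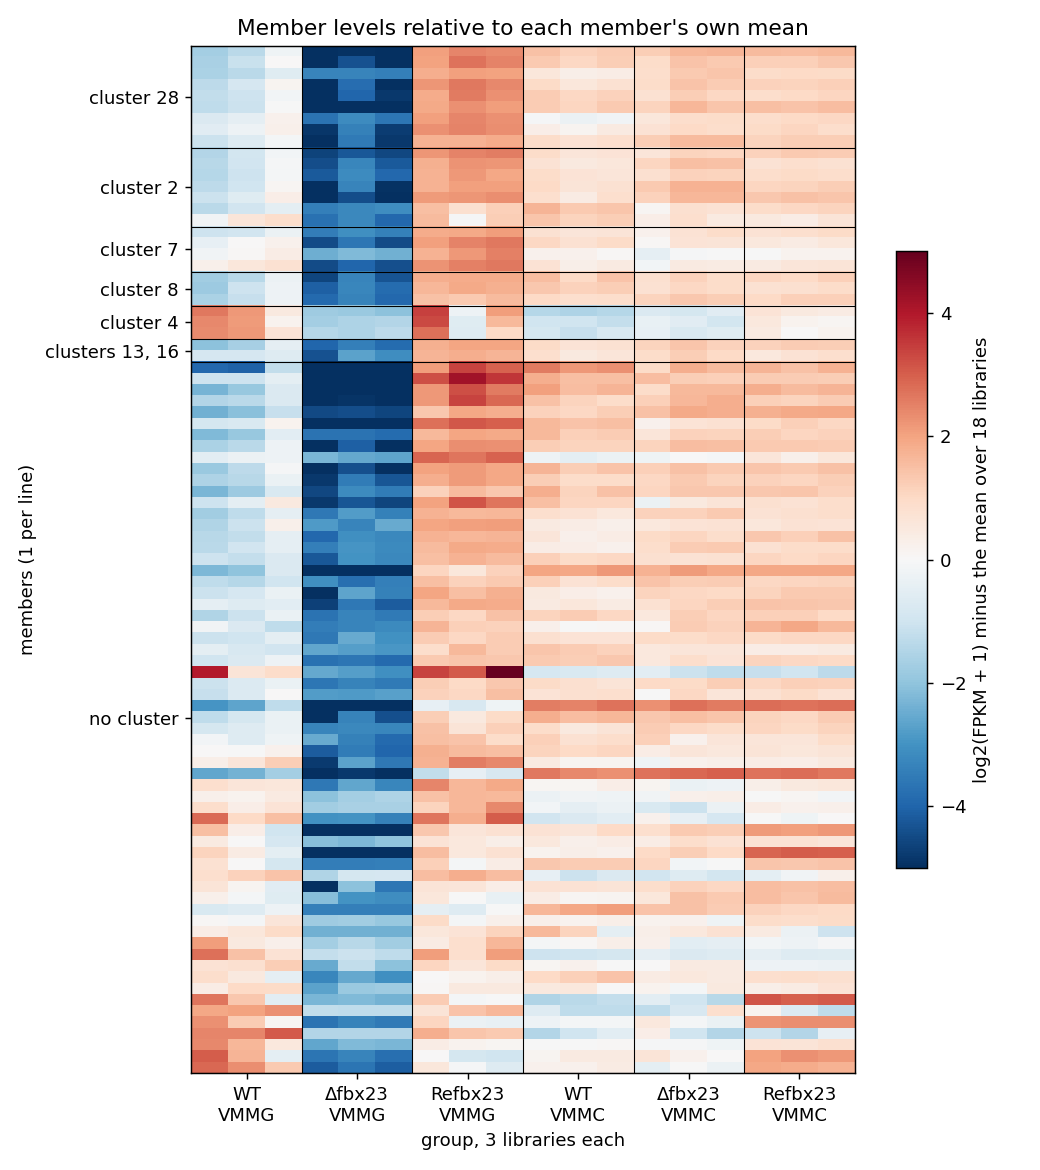
Heat map of log2(FPKM + 1) of each of the 91 members minus its own mean over the 18 libraries, with members of secondary metabolism clusters at the top and, within each block, the member with the largest Refbx23 to WT difference in VMMG first. The Δfbx23 libraries in VMMG are low by choice of the members, Refbx23 in VMMG is the highest group for most lines, and several of the lowest lines are instead high in WT VMMG replicate 1 and in Refbx23 in VMMC.

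The strongest transcripts among the members differed in how they behaved. PDE_06571, which carries no description in the sources used here, was at 4994, 5275 and 7002 FPKM in the WT in VMMG and at 518, 1265 and 719.7 FPKM in Δfbx23. In Refbx23 it was at 6264, 4612 and 5872 FPKM, within the range of the WT apart from 1 library below it. In VMMC it was at 2990 to 3510 FPKM in the WT, 3020 to 4162 FPKM in Δfbx23 and 2457 to 2553 FPKM in Refbx23. It was therefore lower on cellulose than on glucose in both strains with fbx23. PDE_07202 was at 3719, 2916 and 2036 FPKM in the WT in VMMG, at 710.2, 389 and 359 FPKM in Δfbx23 and at 4544, 3071 and 2359 FPKM in Refbx23. The WT and Refbx23 libraries overlapped, and replicate 1 was the highest in VMMG in every strain.

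PDE_03044 and PDE_04665 went far past the WT in Refbx23. PDE_03044 was at 392, 554 and 1141 FPKM in the WT in VMMG, at 80.5, 219.9 and 169 FPKM in Δfbx23 and at 4246, 5718 and 4884 FPKM in Refbx23. The level in Refbx23 in VMMG was 7.11 times the WT and lay close to the 4098 to 6771 FPKM seen in the 9 libraries in VMMC. At 22.5% of the WT, it was the member with the highest share left in Δfbx23. PDE_04665 was at 176, 173 and 258 FPKM in the WT, 2.01, 2.23 and 1.29 FPKM in Δfbx23, and 3365, 6690 and 4333 FPKM in Refbx23, a ratio to the WT of 23.7. In VMMC it was at 818 to 1249 FPKM in all strains, below every Refbx23 library in VMMG. PDE_09474 had the largest ratio, 46.7. It was at 1.49, 1.28 and 15.3 FPKM in the WT, at 0.06, 0 and 0.06 FPKM in Δfbx23 and at 159.9, 394 and 289.5 FPKM in Refbx23, and its WT mean rested on replicate 3.

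Several other members with high WT levels in VMMG stayed closer to the WT in Refbx23. The Refbx23 to WT ratio of means was 1.30 for PDE_02854, 1.53 for PDE_03823 and 0.850 for PDE_06680, with overlapping libraries in each case. PDE_06680 was at 236, 179 and 93.5 FPKM in the WT, 12.5, 21.1 and 14.2 FPKM in Δfbx23 and 129.8, 145.5 and 154.9 FPKM in Refbx23. PDE_03823 was at 451, 125 and 180.4 FPKM in the WT, with Δfbx23 between 5.07 and 7.15 FPKM and Refbx23 between 223 and 527 FPKM. It was much lower on cellulose, at 32.2 to 74.0 FPKM over all 9 libraries. PDE_01358 had a ratio of 5.89 and PDE_07434 of 2.83, and for both all Refbx23 libraries were above all WT libraries. PDE_01358 was also among the 5 members with the highest mean over the VMMC libraries, together with PDE_07202, PDE_03044, PDE_06571 and PDE_04665.

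**Figure D3:**
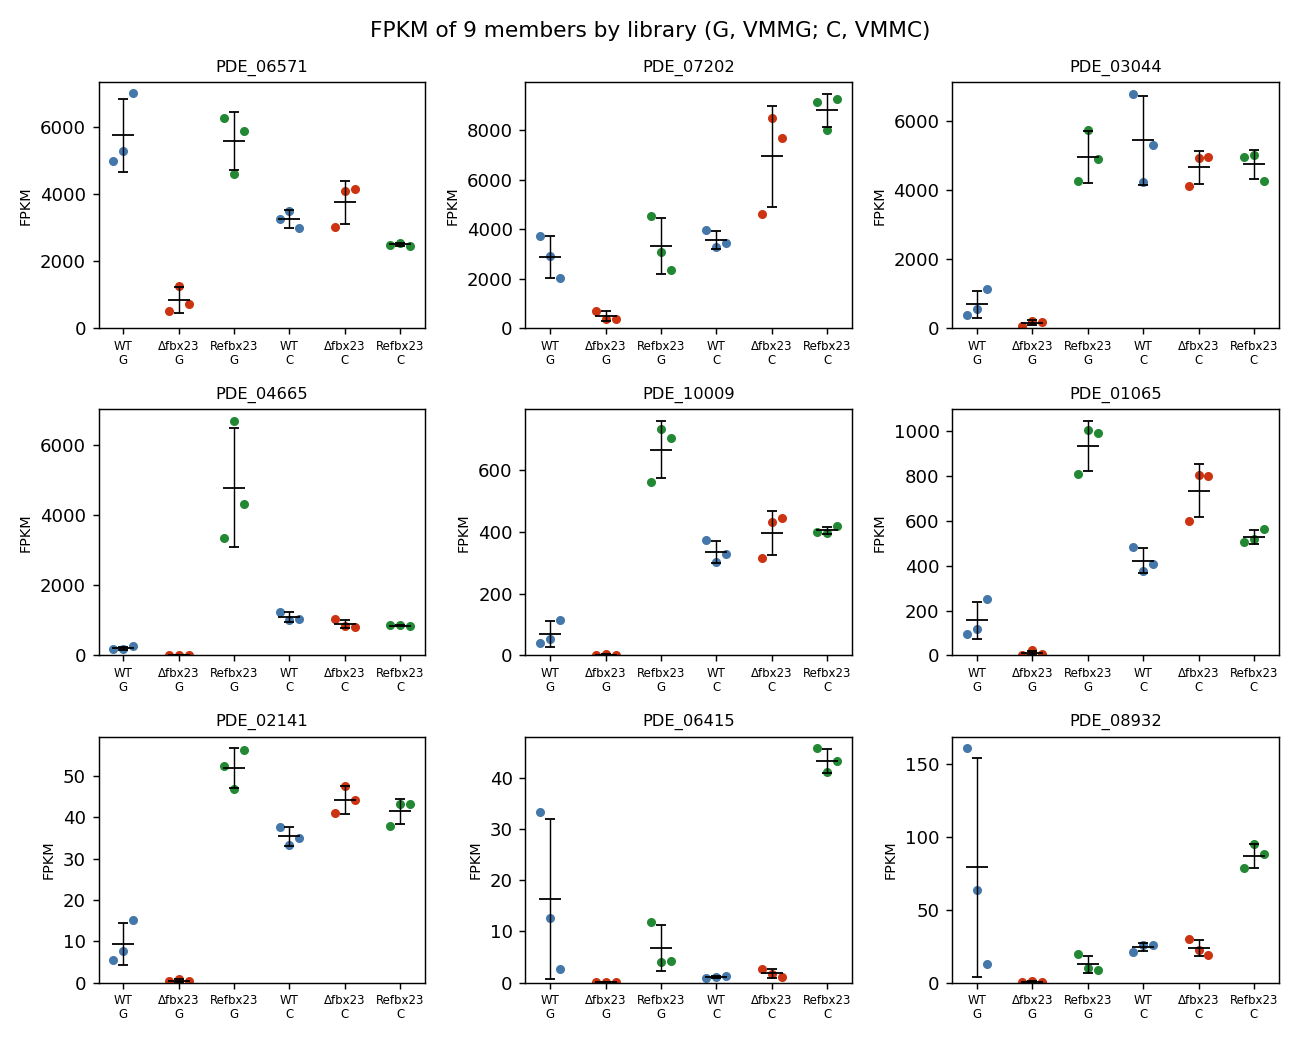
FPKM of 9 members in each library (points) with the mean and SD of 3 (bars), in VMMG (G) and VMMC (C). PDE_10009, PDE_01065 and PDE_02141 belong to clusters 28, 2 and 8, all are highest in Refbx23 in VMMG, and PDE_06415 and PDE_08932 are high in Refbx23 in VMMC and in WT replicate 1 in VMMG.

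Secondary metabolism genes made up a large share of the members. The study lists 28 clusters by their first and last locus. In 3 of them, clusters 7, 20 and 28, a printed limit was read as a misprint and replaced. Cluster 7 was taken to end at PDE_01433 and cluster 28 to start at PDE_09999. The 4 members of cluster 7, the 9 of cluster 28 and the shares below rest on this reading. Of the 91 members 28 (30.8%) lay in the 28 clusters, against 284 of all 9230 genes (3.08%) and 2.72% of the genes with at least 5 FPKM in the WT in VMMG. Locus numbers were close together outside the clusters too. In all, 39 members had another member within 2 locus numbers, forming 13 runs, and 14 of these 39 lay outside the 28 clusters. The cluster genes were not independent of each other, since neighbours in a cluster tend to be transcribed together. The study already reports clusters 1, 2, 26 and 28 as lower in Δfbx23 on glucose. It adds that all of these were silenced in an earlier brlA deletion mutant. The paper proposes an indirect effect through brlA, which was not tested here.

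Cluster 28 was the most complete. It has 11 genes in the table, 9 of them were members, and these were all the genes of the cluster that reached 5 FPKM in the WT in VMMG. Each of the 9 was highest in WT VMMG replicate 3. The median of their means was 40.3 FPKM in the WT, 1.35 FPKM in Δfbx23 and 285 FPKM in Refbx23 in VMMG. PDE_10009, the second strongest of them in the WT, was at 40.4, 52.5 and 116 FPKM in the WT, 0.67, 3.43 and 1.71 FPKM in Δfbx23 and 560.2, 732 and 704 FPKM in Refbx23. The groups did not overlap. The strongest, PDE_10007, was at 57.4, 70.2 and 110.4 FPKM in the WT, 6.46, 9.91 and 6.98 FPKM in Δfbx23 and 407, 523 and 469 FPKM in Refbx23. The PKS gene of the cluster, PDE_10006, was not a member because its WT mean was 4.57 FPKM. It had the same order of groups, with 2.53, 3.5 and 7.68 FPKM in the WT, 0.06, 0.11 and 0.09 FPKM in Δfbx23 and 48.0, 64.4 and 74.5 FPKM in Refbx23. PDE_10010, which lies next to the end of the cluster's range, was a member as well, at 18.9, 22.2 and 47.8 FPKM in the WT, 0.42, 2.44 and 0.31 FPKM in Δfbx23 and 230.6, 296 and 288 FPKM in Refbx23. It carried a GO term for mycotoxin biosynthesis. PDE_10000, inside the cluster, stood apart and was singled out after its values were seen. It was listed at 0 in all 6 Refbx23 libraries in both media, while in VMMC it was at 29.1 to 54.8 FPKM in the WT and 3.13 to 14.1 FPKM in Δfbx23. Whether the gene is intact in Refbx23 was not tested.

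Cluster 2, which the study ties to the mycotoxins roquefortine C and meleagrin, had 7 members among 13 genes. The median of their means was 20.3 FPKM in the WT, 0.920 FPKM in Δfbx23 and 166.6 FPKM in Refbx23 in VMMG, and 6 of the 7 were at least 1 log2 unit above the WT in Refbx23. PDE_01065 was at 95.9, 119 and 252 FPKM in the WT, 2.66, 23.1 and 6.80 FPKM in Δfbx23 and 806, 1002 and 990.2 FPKM in Refbx23. PDE_01069 was at 54.4, 74.9 and 146 FPKM in the WT, 0.78, 4.44 and 1.42 FPKM in Δfbx23 and 502, 538 and 579 FPKM in Refbx23. Neither gene overlapped between strains in VMMG. The exception was PDE_01073, whose means were 20.3 FPKM in the WT and 31.1 FPKM in Refbx23. None of the 3 backbone genes of the cluster was a member. PDE_01066, a dimethylallyl tryptophan synthase gene, kept 26.2 FPKM in Δfbx23 against 79.9 FPKM in the WT and missed the required difference. Of the NRPS genes PDE_01071 had a WT mean of 2.81 FPKM, with 0.1 FPKM in Δfbx23 and 51.1 FPKM in Refbx23, and PDE_01077 was under 1 FPKM in all 3 strains in VMMG.

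The 2 backbone genes among the members lay in clusters 7 and 8. In cluster 7 the NRPS gene PDE_01432 was at 4.42, 5.51 and 6.97 FPKM in the WT in VMMG, 0.15, 0.36 and 0.18 FPKM in Δfbx23 and 19.6, 26.9 and 34.6 FPKM in Refbx23. In VMMC it was at 5.54 to 6.26 FPKM in the WT, within its range on glucose. Its neighbours PDE_01430, with means of 34.4, 0.253 and 133 FPKM, and PDE_01429, with 28.2, 0.720 and 159 FPKM in the WT, Δfbx23 and Refbx23 in VMMG, had the same order. PDE_01433, with GO terms for monooxygenase activity and mycotoxin biosynthesis, had means of 5.70, 0.117 and 41.3 FPKM. In cluster 8 the PKS gene PDE_02141, whose protein is described as like the lovastatin nonaketide synthase of Aspergillus terreus, was at 5.41, 7.72 and 15.1 FPKM in the WT. It was at 0.30, 0.89 and 0.28 FPKM in Δfbx23, 52.3, 46.7 and 56.3 FPKM in Refbx23 and 33.3 to 47.6 FPKM in all libraries in VMMC. Only a part of cluster 8 behaved in this way. Its other backbone gene, the NRPS gene PDE_02131, was not a member. In VMMG it was at 0.66, 0.81 and 1.39 FPKM in the WT and 6.56, 1.15 and 1.92 FPKM in Δfbx23. Members PDE_02138, PDE_02139 and PDE_02141 were lower in Δfbx23 in VMMG, whereas the mean of the cluster gene PDE_02134 was 158.1 FPKM in Δfbx23 and 55.6 FPKM in the WT. The Δfbx23 mean of PDE_02134 rested largely on replicate 1, with 304, 81.9 and 87.9 FPKM against 42.6, 50.9 and 73.2 FPKM in the WT.

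The 3 members of cluster 4 differed from those of clusters 28, 2, 7 and 8 in WT replicate, in carbon source and in Refbx23. PDE_01188, with a GO term for dioxygenase activity, PDE_01189 and PDE_01195 were all highest in WT VMMG replicate 1. PDE_01195 was at 44.7, 32.2 and 9.38 FPKM in the WT and at 78.2, 5.21 and 30.3 FPKM in Refbx23 in VMMG, so both groups were wide and overlapped. In VMMC it was at 1.54 to 1.77 FPKM in the WT. In Refbx23 in VMMG, PDE_01188 was at 35.8, 1.47 and 10.6 FPKM and PDE_01189 at 18.8, 0.85 and 4.76 FPKM. Replicate 2 was thus not far above their Δfbx23 libraries, which reached 0.37 and 0.16 FPKM. The WT mean in VMMC was 0.0516 to 0.0642 times that in VMMG for these 3 members, against 1.07 to 4.80 times for the members of cluster 28. Clusters 1 and 26 contributed no member at all. In cluster 1 22 of 28 genes, and in cluster 26 14 of 17 genes, met the conditions in VMMG, and every one of these was taken out because Δfbx23 was higher than the WT in VMMC. Over all genes of cluster 26 the median in VMMC was 59.0 FPKM in the WT, 682.8 FPKM in Δfbx23 and 634 FPKM in Refbx23. In cluster 28 it was 83.6, 117 and 97.6 FPKM.

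Few members outside the clusters carried a description. GO terms in the sheets read, which are held in part, named 16 of the 91 members. Among them were the transporter genes PDE_03454, which lies in cluster 13, and PDE_04300, the amino acid transport gene PDE_05523, the carbohydrate-binding gene PDE_03526 and the monooxygenase gene PDE_04107. PDE_05523 and its neighbour PDE_05524 moved side by side, with means in the WT, Δfbx23 and Refbx23 in VMMG of 10.3, 1.11 and 67.2 FPKM for the first and 46.4, 4.44 and 367 FPKM for the second. PDE_04107 and its neighbour PDE_04106 were instead far higher on cellulose. PDE_04106 was at 7.70, 9.77 and 26.9 FPKM in the WT in VMMG and at 396, 374 and 436 FPKM in the WT in VMMC. PDE_03248, described as like an uncharacterized transporter of Schizosaccharomyces pombe, was at 69.3, 61.2 and 65.4 FPKM in the WT, 2.78, 7.17 and 4.37 FPKM in Δfbx23 and 299.8, 354 and 348 FPKM in Refbx23 in VMMG. Its WT libraries were unusually even for a member. None of the 13 cellulase genes of the study was a member.

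The WT libraries in VMMG were not alike, and members differed in which of these libraries was highest. Of the 91 members 65 were highest in WT replicate 3, 25 in replicate 1 and 1 in replicate 2. Over all 6515 genes with at least 5 FPKM these shares were 32.9%, 46.2% and 20.9%. At least 2 times the level of replicate 1 was reached in replicate 3 by 34 members, with a largest ratio of 10.2, and the reverse held for 19 members, with a largest ratio of 12.3. In the same libraries brlA was at 11.7, 15.4 and 35.2 FPKM, all 7 conidiation and pigment genes were highest in replicate 3, and ace1 (PDE_01988), the gene of the studied substrate, was at 169.7, 146 and 94.5 FPKM. Of the 65 members highest in replicate 3, 57 were at least 1 log2 unit higher in Refbx23 than in the WT in VMMG and 49 were at least 1 higher in VMMC than in VMMG in the WT. Of the 25 members highest in replicate 1, these counts were 7 and 4. The median log2 difference of Refbx23 to the WT in VMMG was 2.60 in the first set and 0.46 in the second. These 2 sets were formed after the values were seen. Both differences use the WT VMMG libraries that formed the sets and chose the members. The counts and medians of the 2 sets are therefore a description and do not show separate groups of members. Whether the libraries differed in growth stage was not tested. Without WT VMMG replicate 3 the rule gave 79 members, 76 of them among the 91.

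**Figure D4:**
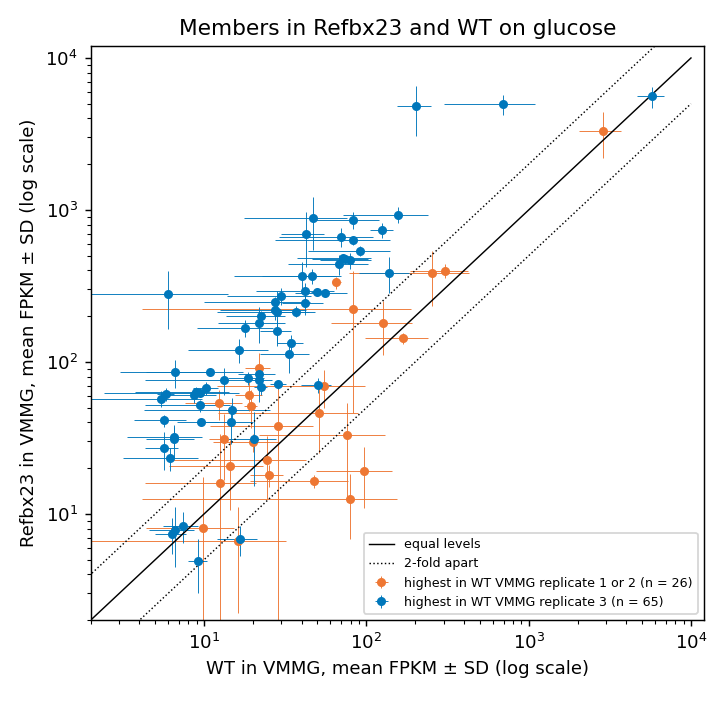
Mean FPKM of each of the 91 members in the WT (x axis) and Refbx23 (y axis) in VMMG on log axes, with the SD of 3 libraries as bars that are shortened where they would reach 0 or leave the plot. Most of the 65 members highest in WT replicate 3 lie above the dotted 2-fold line, while the other 26 are spread over both sides of the line of equal levels.

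The Refbx23 libraries in VMMC were not used to choose the members, and they were tested in 2 comparisons. The WT and Δfbx23 libraries on the other side were used by the rule. It took out genes whose Δfbx23 and WT means in VMMC were far apart. Few genes were called between Refbx23 and Δfbx23 in VMMC, so this can also have taken out genes in which Refbx23 differed from the WT. The shares over all genes had no such filter and are not a like background for the member counts. Against the WT in VMMC, limma called 12 of the 89 members tested higher (13.5%) and 0 lower, where a call needed a 2-fold difference and an adjusted p (Benjamini-Hochberg) under 0.05. Over all 8012 genes tested 5.63% were called higher and 7.09% lower. At an unadjusted p under 0.05 from limma, 46 members were higher and 16 lower in Refbx23. At an adjusted p under 0.05 without the fold condition, 43 were higher and 16 lower. None of those lower at either threshold was lower by 2-fold. The shares over all genes were not counted at these thresholds. Without WT VMMC replicate 3 the count of members called lower was 1, PDE_00469, which was at 15.3, 10.5 and 2.85 FPKM in the WT and 6.28, 3.38 and 1.59 FPKM in Refbx23. PDE_02326 and PDE_03861 were not tested, since their means over the 6 libraries were under 1 FPKM. All 3 Refbx23 libraries were above all 3 WT libraries for 45 of the 89 members and below them for 17, beside 33.9% and 34.1% of all genes. The median log2 difference of the 91 members was 0.18, beside -0.01 over all genes tested. Most members therefore stayed within 2-fold of the WT, as they had to for Δfbx23 against the WT by the rule.

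Against Δfbx23 in VMMC, limma called 7 of 89 members higher (7.87%) and 0 lower. Over all 7894 genes tested 1.44% were called higher and 1.67% lower. At an unadjusted p under 0.05 from limma, 27 members were higher and 12 lower. At an adjusted p under 0.05 without the fold condition, 20 were higher and 5 lower. None of those lower at either threshold was lower by 2-fold. The shares over all genes were not counted at these thresholds. Without Refbx23 VMMC replicate 1 PDE_00469 was the 1 member called lower. All 3 Refbx23 libraries were above all 3 Δfbx23 libraries for 29 members and below them for 10, beside 22.3% and 13.6% of all genes. Both comparisons share the Refbx23 libraries, and the rule held Δfbx23 and the WT within 2-fold of each other in VMMC, so they are not separate evidence. With all 18 libraries in 1 fit, 4 members were called higher against Δfbx23 and PDE_01195, PDE_07566 and PDE_08932 were not. PDE_07566 was the least stable call, with an adjusted p of 0.0488 from limma, and it was lost without either Δfbx23 replicate 2 or 3, or without any single Refbx23 replicate.

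PDE_06415 differed most. It was at 45.8, 41.1 and 43.3 FPKM in Refbx23 in VMMC, at 0.87, 1.07 and 1.35 FPKM in the WT and at 2.69, 1.68 and 1.04 FPKM in Δfbx23. Refbx23 was thus 39.6 times the WT and 24.1 times Δfbx23 in the ratio of means, and the log2 differences of FPKM + 1 were 4.41 (SE 0.11, adjusted p = 3.71e-08 from limma) and 4.03 (SE 0.20, limma adjusted p = 3.15e-05). In VMMG the same gene was at 33.4, 12.7 and 2.71 FPKM in the WT and 11.9, 3.97 and 4.25 FPKM in Refbx23. PDE_06706, with GO terms for dioxygenase activity and mycotoxin biosynthesis, was at 680, 736 and 724 FPKM in Refbx23, 100.4, 111 and 103 FPKM in the WT and 178, 214 and 181 FPKM in Δfbx23 in VMMC. Its log2 differences were 2.76 (SE 0.07, adjusted p = 3.71e-08 from limma) against the WT and 1.90 (SE 0.09, limma adjusted p = 2.14e-05) against Δfbx23. PDE_08920 was at 128, 137 and 135 FPKM in Refbx23, 21.8, 24.6 and 24.3 FPKM in the WT and 38.5, 24.5 and 20.9 FPKM in Δfbx23. It was higher by 2.46 (SE 0.07, adjusted p = 7.50e-08 from limma) and 2.26 (SE 0.20, limma adjusted p = 0.000444). In VMMC neither the WT nor Δfbx23 overlapped Refbx23 for these genes. Each gave p = 0.1 there in the exact permutation test (two-sided, 3 against 3), the smallest that this design allows.

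PDE_08932 and PDE_04225, like PDE_06415 and PDE_08920, were below the WT mean in Refbx23 on glucose and above it on cellulose. PDE_08932 was at 160.5, 63.7 and 13.1 FPKM in the WT and only 19.3, 9.69 and 8.90 FPKM in Refbx23 in VMMG, the lowest ratio of any member at 0.160. In VMMC it was at 78.3, 94.7 and 87.8 FPKM in Refbx23, above 21.1 to 25.97 FPKM in the WT (log2 difference 1.80, SE 0.10, limma adjusted p = 3.37e-06) and 19.1 to 29.8 FPKM in Δfbx23 (1.85, SE 0.16, limma adjusted p = 0.000365). PDE_04225 was at 143, 99.2 and 47.4 FPKM in the WT and 28.2, 18.1 and 11.5 FPKM in Refbx23 in VMMG. In VMMC it was at 73.6, 71.0 and 65.5 FPKM in Refbx23, and at 21.7 to 25.2 FPKM in the WT and 12.9 to 18.6 FPKM in Δfbx23. Its log2 difference from Δfbx23 was 2.11 (SE 0.12, adjusted p = 6.52e-05 from limma). PDE_01195 of cluster 4 was at 10.8, 9.37 and 8.83 FPKM in Refbx23 against 1.54 to 1.77 FPKM in the WT in VMMC (log2 difference 1.98, SE 0.11, limma adjusted p = 3.31e-06).

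The other members called higher against the WT were PDE_00144, PDE_01188, PDE_01189, PDE_07202, PDE_08274 and PDE_10007, with log2 differences of 1.14 to 1.67. The calls of PDE_01188 and PDE_01189, both under 5 FPKM in Refbx23 in VMMC, were lost with all 18 libraries in 1 fit, and neither gene was tested under a filter of 5 FPKM. The abundant PDE_07202 was at 9126, 8015 and 9239 FPKM in Refbx23 in VMMC and 3982, 3294 and 3428 FPKM in the WT, while Δfbx23 reached from 4610 to 8506 FPKM. PDE_10007 was the 1 member of cluster 28 called, and no member of clusters 2, 7 or 8 was. Of the 12 members called against the WT, 11 were among the 25 that were highest in WT VMMG replicate 1, and PDE_10007 was the exception. Against Δfbx23 all 7 were among these 25. No WT library in VMMG entered the comparisons in VMMC, but the sets were formed after the values were seen and this is given as a description. Over the 91 members, the log2 difference of WT VMMG replicates 3 and 1 and the difference of Refbx23 to the WT in VMMC had a Pearson's r of -0.56 and a Spearman's rho of -0.34, across genes that are not independent. In VMMC, the log2 differences of the 7 conidiation and pigment genes were -0.46 to 0.23 for Refbx23 against the WT and -0.61 to 0.24 against Δfbx23. Of the 13 cellulase genes, limma called 11 lower in Refbx23 than in Δfbx23 in VMMC. Against the WT in VMMC, 3 of the 12 cellulase genes tested were called lower and 0 higher.

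**Figure D5:**
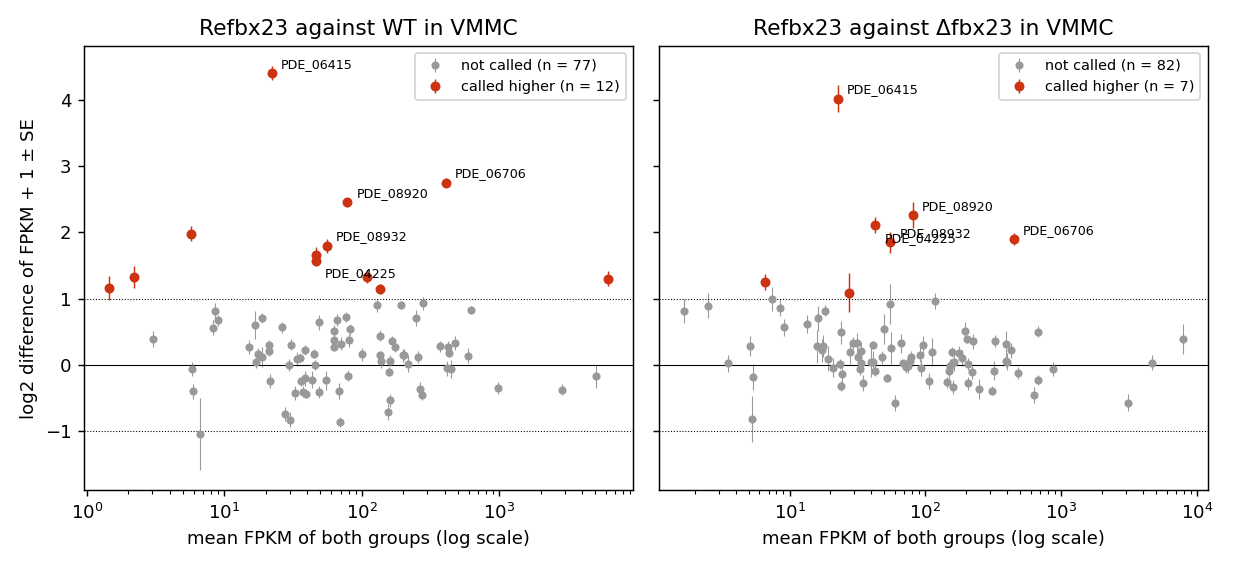
Log2 difference of FPKM + 1 with its SE for the 89 members tested, Refbx23 against the WT (left) and against Δfbx23 (right) in VMMC, over the mean FPKM of the groups on a log axis. The dotted lines mark 2-fold differences, 12 and 7 members are called higher, none is called lower, and PDE_06415 is farthest from 0 in both panels.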

How the data were processed

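RNA was measured in 18 libraries, 3 for each of 3 strains in 2 media, grouped by their labels. The authors mapped reads to the P. oxalicum genome and deposited FPKM values with 2 decimals for 9230 genes, 20 of them under names of the sequencing provider. The aligner, counting tool and genome version are not given in the sources used here. The labels describe a tag-based library, the paper RNA-Seq. FPKM are relative to all mapped reads, so a few strong genes can shift the rest, and values listed at 0 carry no known limit. The reference at hand matched 0 identifiers, so no positions, lengths or sequences are given.

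The members and lists were chosen with earlier results of these data known. log2(FPKM + 1) values were fitted in limma 3.58.1 (R 4.3.3) with an intensity trend. Genes averaging 1 FPKM or more over the 6 libraries of a comparison were tested, with Benjamini-Hochberg adjustment over all of them. A fold change of at least 2 and an adjusted p under 0.05 made a call. Fold changes on this scale understate those of low genes. The steps were tested on simulated data. Exact permutation tests were run for named members. Named members were the 12 with the highest WT mean in VMMG, backbone genes, the top 2 in WT VMMG of each of the 3 clusters with most members, those with a protein description in the mass spectrometry sheets, up to 5 called per direction and comparison, the 5 highest in VMMC and those next to a threshold. Others were named after their values were seen. The settings varied were the pseudocount (0.1 and 0.5), the filter (none and 5 FPKM), median-ratio scaling, a single fit of all 18 libraries, the intensity trend, a replicate block, leaving out each library and, for the choice of members, WT means of 1 and 10 FPKM. Tables and figures were made in Python.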

Additional observations from a re-analysis of the deposited data

How the results depend on the processing

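The number of genes meeting the rule was 100 with a pseudocount of 0.1, 94 with 0.5, 88 with median-ratio scaling, 96 with a WT mean of at least 1 FPKM and 72 with at least 10, and 79 to 96 when single libraries were left out. For Refbx23 against the WT in VMMC, members called higher numbered 10 to 13 over all alternatives, and 12 to 13 when single libraries were left out. Members called lower were 0 except for PDE_00469, which made the count 1 with the replicate block and 0 to 1 when single libraries were left out. For Refbx23 against Δfbx23 in VMMC, members called higher numbered 4 with all 18 libraries in 1 fit, where PDE_08932 had a limma adjusted p of 0.0664, against 7, and 6 to 8 when single libraries were left out. The count was 9 and 10 with pseudocounts of 0.1 and 0.5. Members called lower were 0 to 1 when single libraries were left out, the 1 being PDE_00469 without Refbx23 VMMC replicate 1. The causes of these changes were not tested. None of the results turned direction under the alternatives run. In VMMC, deviations of same-numbered libraries correlated at 0.04, 0.26 and 0.03 for replicates 1, 2 and 3 of Refbx23 and the WT and at -0.21 to -0.04 for Refbx23 and Δfbx23. Not every pair was above 0.1, so in these comparisons the libraries were taken to share only a number, and not every library correlated best with its own number. With the replicate block 12 and 7 members were called higher. Median-ratio scaling put the median over all genes at -0.02 and -0.01. Depth limits were not known, and members under 1 FPKM in Δfbx23 can only be said to be low.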
